A study of Mus musculus with 42 samples.

Results

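The heat shock and unfolded protein response genes form a set of 34 genes that code for chaperones, folding enzymes, degradation factors and the transcription factors that control them. The members were chosen by name, and each was read from the probe set with the highest mean signal among those that carried its symbol in the platform annotation. Of the 34 genes, 32 were measured and all 32 passed the filter on low signals, among 12363 genes tested in all. The other two, Hsf1, the main heat-inducible transcription factor, and Hsp90ab1, a cytosolic HSP90, had no probe set with that symbol in the annotation and are not analysed here.

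Proteins that fail to fold are handled by separate systems in each compartment. In the cytosol, heat shock factors switch on genes for the HSP70, HSP90, HSP40 and small heat shock proteins, which bind unfolded chains. In the endoplasmic reticulum (ER), the unfolded protein response uses the sensors IRE1, PERK and ATF6: IRE1 splices the Xbp1 transcript, PERK phosphorylates the translation factor eIF2 and so favours translation of Atf4, and ATF6 is cleaved to a transcription factor. PERK shares its substrate with other kinases in the integrated stress response, whose targets include Ddit3, Trib3, Chac1, Asns and Ppp1r15a. B-lineage cells rely on Xbp1 when they become secreting plasma cells.

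The study compared the response to ionizing radiation of mouse pre-B cell lines that carry defects in DNA damage response genes. Each line came from the bone marrow of a mouse 3 to 5 weeks old, had been transformed with the pMSCV-v-abl retrovirus, which carries the v-abl oncogene, and held the Em-Bcl2 transgene, which expresses the survival factor Bcl2 in B cells. All 21 lines, WT included, share both the oncogene and the transgene. There were 3 lines of each of 7 genotypes: WT (numbered 1, 3 and 4), Atm-/-, Scid (mutated in Prkdc, the gene for DNA-PKcs), the hypomorph Mre11A/A, 53bp1-/-, H2ax-/- and Mdc1-/- (each numbered 1, 2 and 3). RNA of each line was hybridized to 1 Affymetrix array untreated and to 1 array 2 h after 1 Gy of gamma rays from a cesium source, which gives 42 arrays in 14 groups of 3. The labels call the lines of a genotype biological replicates without saying whether they came from separate mice, so p-values measure the spread between these lines.

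Of the 8 listed pre-B markers, 7 had a symbol on the platform and all 7 passed the filter. Vpreb1, a surrogate light chain gene, lay between 15300 and 33200 on every array. Of markers of other cells, 0 of 3 named erythroid, 1 of 5 T cell (Cd8a), 5 of 6 myeloid, 3 of 6 stromal and 4 of 5 plasma cell markers passed, and Cd3e, which defines T cells, was between 5.06 and 48.1. The filter thus did not set pre-B markers apart from myeloid or plasma cell markers. Summed over the named markers of a list, pre-B signals were 45310 or more on every array. The plasma cell sum was at most 4181, the myeloid sum 816.9 and the stromal sum 435.8. Of the 6 targeted genes, 3 (Mre11a, H2ax and Mdc1) had lower signals on the 6 arrays of their own genotype than on any other array, while the signals of Atm, Prkdc and Trp53bp1 overlapped with those of other genotypes, and whether these probe sets lie in the altered parts was not tested. Array medians lay between 62.6 and 82.9 except for the irradiated arrays of WT line 4 (103) and Atm-/- line 2 (116). The 3'/5' signal ratio of Gapdh, a sign of RNA quality, ranged from 0.761 to 0.829 over the WT, Atm-/- and Scid arrays and from 0.8 to 0.864 over those of the other 4 genotypes, so it moved with genotype though the ranges overlapped. The same ratio of Actb overlapped widely, from 1.22 to 1.61 over the WT, Atm-/- and Scid arrays and from 1.27 to 1.63 over the others.

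The regulatory sequences for which these pathways are known were looked for in RefSeq promoter windows of GRCm38.p6, each from 250 bases before to 50 bases after a gene's start, on both strands. Windows were found for 28 members. The ER stress response element (CCAAT and CCACG with 9 free bases between them), to which ATF6 and NF-Y bind, was present in those of 7 members (Calr, Canx, Creld2, Dnajc3, Hsp90b1, Hspa5 and Pdia6), all among the 11 ER chaperones and folding enzymes that had a window, and in 0.119% of all 32851 windows. Its second form (ATTGG and CCACG with 1 free base between them) was found for Herpud1 and in 0.0365% of windows. The heat shock element core of 2 units (GAANNTTC) was found for 7 members (Asns, Dnaja1, Hspa1b, Hspb1, Hspd1, Hspe1 and Hsph1) and in 7.86%. The element of 3 units, which is that core followed after 2 free bases by GAA, was found for Hspd1, Hspe1 and Hsph1 and in 0.603%. The element bound by ATF4 and C/EBP factors (TGATGNAA) was found for Asns, Chac1, Herpud1 and Trib3 and in 3.97%. A match is a description of these letters and shows no binding.

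The stretches below are examples of promoters that carry ER stress response elements or heat shock elements. They are written 5′ to 3′ on the gene's strand, and capitals mark the whole match including its free bases. For the ER, Hspa5 (plus strand, chr2:34771980-34772059) holds 1 element, Hsp90b1 (minus strand, chr10:86705520-86705669) holds 2, of which the second reads in the opposite orientation, and Calr (minus strand, chr8:84847042-84847121) holds 1 in the opposite orientation.
Hspa5: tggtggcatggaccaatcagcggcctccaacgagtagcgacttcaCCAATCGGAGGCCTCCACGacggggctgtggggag
Hsp90b1: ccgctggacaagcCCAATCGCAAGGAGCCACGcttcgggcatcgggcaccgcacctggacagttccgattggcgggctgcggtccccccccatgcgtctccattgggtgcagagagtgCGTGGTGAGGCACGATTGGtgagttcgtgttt
Calr: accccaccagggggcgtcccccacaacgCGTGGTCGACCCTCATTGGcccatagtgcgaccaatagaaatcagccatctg

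For heat shock, a stretch of 30 bases before the Hspe1 start (plus strand, chr1:55088053-55088082) carries 2 overlapping elements of 3 units, and the same letters fall in the window of Hspd1, which is read from the opposite strand. Hspa1b (minus strand, chr17:34959319-34959458) and its neighbour Hspa1a (minus strand, chr17:34972237-34972376) carry 1 core of 2 units at the same distance from the start. Their 250 bases before the start are identical at 247 positions and differ at 3.
Hspe1: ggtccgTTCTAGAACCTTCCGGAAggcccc
Hspa1b: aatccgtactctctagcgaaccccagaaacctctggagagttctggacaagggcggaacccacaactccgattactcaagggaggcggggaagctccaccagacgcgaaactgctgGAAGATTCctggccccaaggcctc
Hspa1a: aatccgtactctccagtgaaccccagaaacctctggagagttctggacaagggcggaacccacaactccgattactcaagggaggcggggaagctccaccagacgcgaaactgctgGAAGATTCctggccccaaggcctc

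After radiation, Hspa1b, a stress-inducible cytosolic HSP70, was the only member with a rise of 1 log2 unit or more in any genotype mean. Its signal went from 482 to 1138, 611 to 2493 and 313 to 711 in WT lines 1, 3 and 4. It went from 190 to 506, 243 to 733 and 256 to 1133 in H2ax-/- and from 213 to 671, 117 to 434 and 144 to 586 in Mdc1-/-. In these 3 genotypes every irradiated value lay above every untreated value of the genotype.

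In Scid, the signal went from 506 to 4772, 187 to 275 and 613 to 1059, so that line 1 alone reached a value above all other irradiated lines. In 53bp1-/- it went from 256 to 368, 246 to 825 and 2830 to 3138, where line 3 was already high before radiation. In Atm-/- it went from 307 to 345, 860 to 1077 and 323 to 382, and in Mre11A/A from 318 to 286, 250 to 430 and 344 to 460. The untreated and irradiated ranges of these 4 genotypes overlapped, and 20 of the 21 lines were higher after radiation, the exception being Mre11A/A line 1.

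**Figure D1:**
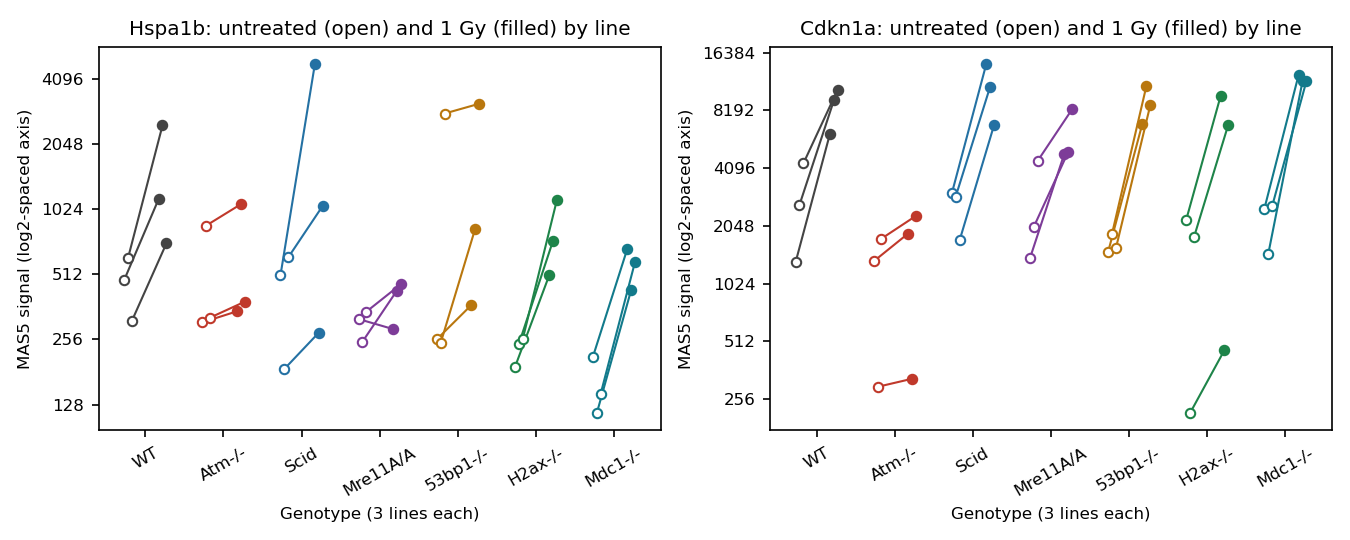
MAS5 signal (log2-spaced axis) of Hspa1b and of Cdkn1a, a radiation-inducible cell cycle inhibitor, by genotype; open circles are untreated, filled circles are 1 Gy, and a line joins the arrays of 1 cell line. Hspa1b rose by 1.14 or more on the log2 scale in the WT, H2ax-/- and Mdc1-/- lines, in Scid line 1 and in 53bp1-/- line 2, and by at most 0.32 on the log2 scale in the Atm-/- lines.

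Changes are 1 Gy minus untreated within a line on log2(signal + 16), as the mean over 3 lines. The standard error after ± is limma's moderated one, from a spread shared by all 42 arrays (by the 21 untreated arrays for untreated levels). It does not show how uneven the 3 lines of a genotype were, and lines of other genotypes enter it. A gene was called where limma gave a p-value under 0.05 after Benjamini-Hochberg adjustment over all 12363 genes. Hspa1b rose by 1.45 ± 0.32 in WT (adjusted p = 0.0101), 1.5 ± 0.32 in Scid (0.00996), 1.65 ± 0.32 in H2ax-/- (0.00513) and 1.76 ± 0.32 in Mdc1-/- (0.000992). Its change was 0.78 ± 0.32 in 53bp1-/- (0.384), 0.34 ± 0.32 in Mre11A/A (1) and 0.24 ± 0.32 in Atm-/- (0.777), and these were not called. Over the 7 genotypes the mean rise was 1.10 ± 0.12 (3.45e-07). Cdkn1a was called higher in every genotype but Atm-/-, where it changed by 0.33 without a call (adjusted p = 0.388). It rose by 1.33 in Mre11A/A (0.00185), 1.71 in H2ax-/-, 1.76 in WT, 2.03 in Scid, 2.41 in 53bp1-/- (2.18e-08) and 2.49 in Mdc1-/-. So it was called in Mre11A/A and 53bp1-/-, where Hspa1b was not.

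The genotype calls of Hspa1b rest on few lines. Without Scid line 1 the Scid change was 0.64 (adjusted p = 0.449), without WT line 3 the WT call was lost (0.18), and without H2ax-/- line 3 the H2ax-/- call was lost (0.135), while the Mdc1-/- call held without any single line (0.0231 at most). When the arrays of a line were not paired, no single genotype was called and the mean over genotypes still was (0.0296).

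The other Hspa1b probe sets gave mean rises of 0.91 and 0.99 over the genotypes, both called among 23245 probe sets tested on their own. They gave 1.43 and 1.49 in WT and 1.92 and 1.96 in Mdc1-/-. In H2ax-/- both gave 1.33 (adjusted p = 0.0622 and 0.0374). In Scid they gave 1.09 (0.143) and 1.08 (0.0996), which were not called, and in Atm-/- -0.10 and 0.19. Hspa1a, the near-identical neighbour, had low signals, from 109 to 211, 164 to 344 and 24.7 to 122 in WT and from 7.47 to 5.78, 89.3 to 37.7 and 21.8 to 51.2 in Atm-/-. It rose by 0.86 ± 0.17 over the genotypes (adjusted p = 0.00076) and was called in no single genotype. This pair is known to have nearly identical coding sequences, so signals assigned to one gene may come from the other.

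Among the 7 measured cytosolic heat shock proteins, Hspa1b was the only one called in WT, Scid, H2ax-/- or Mdc1-/- or over the genotypes. In Scid line 1, where Hspa1b rose by 3.20, Dnajb1, an inducible HSP40 that assists HSP70, changed by -0.10, and Hsph1, an HSP110 that recharges HSP70, by -0.18. Over the 21 lines the change of Dnajb1 had a median of 0.00 and ran from -0.39 to 0.33, and that of Hsph1 had a median of -0.01 and ran from -0.39 to 0.39. Hsp90aa1, the inducible cytosolic HSP90, ran from -0.21 to 0.22, and Dnaja1, another HSP40, from -0.33 to 0.25.

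Hspa8, the constitutive HSP70, went from 25738 to 34579, 31716 to 39266 and 35240 to 34788 in WT, and its change over all lines ran from -0.43 to 0.43 with a median of 0.11. Hspb1, a small heat shock protein, had signals near the array medians, and its highest change, 2.15, came from WT line 4, where it went from 26.6 to 173 on an array with a high median. The mitochondrial chaperonin genes Hspd1 and Hspe1 ran from -0.33 to 0.28 and from -0.35 to 0.41, and neither was called in any response.

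**Figure D2:**
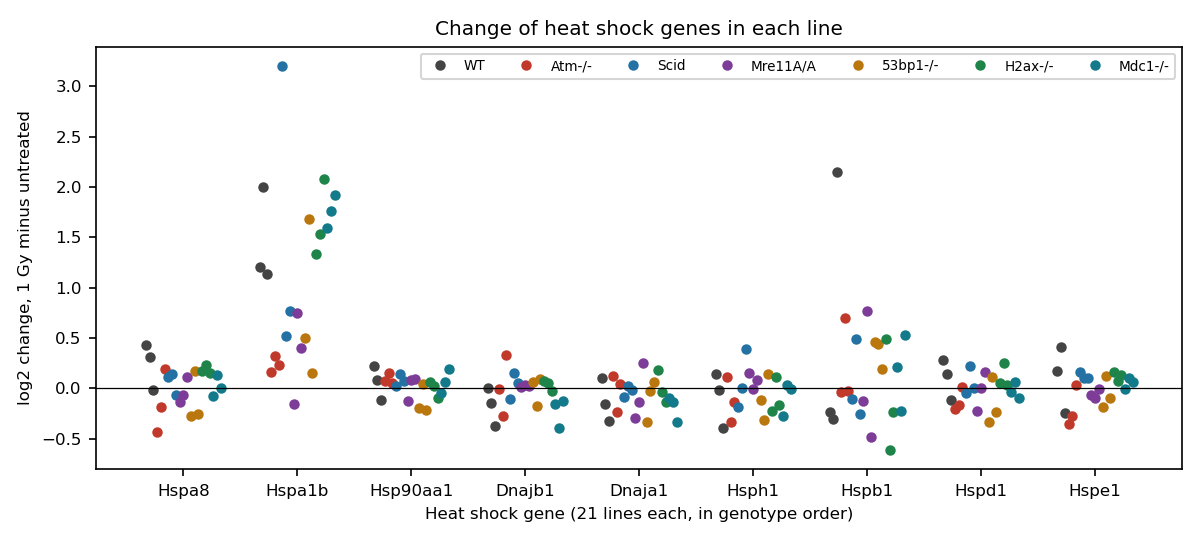
Change on the log2 scale (1 Gy minus untreated) of each cytosolic heat shock and mitochondrial chaperonin gene in each of the 21 lines, coloured by genotype; each point is 1 line. The Hspa1b points reach 3.20 and only 1 lies below 0, while the points of the other genes scatter around 0, with 1 Hspb1 value of 2.15 in WT line 4.

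In each genotype between 0 and 2 of the 32 members were called, numbers too small to set apart from the share of all genes. In WT, 2 of 32 members were called (Hspa1b and Ddit3), where 3.76% of all genes were. In Scid 1 was called (Hspa1b; 2.69% of all genes), in H2ax-/- 1 (Hspa1b; 1.97%) and in Mdc1-/- 2 (Hspa1b and Dnajb9; 5.72%). In Atm-/- 1 was called (Pdia3, lower; 1.33%), and no member was called by limma in Mre11A/A (0.0324%) or 53bp1-/- (1.94%), where 2 members in each had an unadjusted p under 0.05 (4.44% and 9.34% of all genes). The median change of the 32 members ran from -0.04 in 53bp1-/- to 0.09 in H2ax-/-, against -0.02 to 0.03 for all genes.

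Ddit3, which codes for the stress transcription factor CHOP, went from 399 to 773, 473 to 735 and 917 to 1011 in WT, with overlapping ranges, a rise of 0.56 ± 0.16 (adjusted p = 0.0464). In the other genotypes its mean change ran from -0.18 in Scid to 0.23 in Mdc1-/-. A second Ddit3 probe set gave 0.18 in WT (0.71). The WT call was lost when any 1 of 9 lines was left out (WT lines 1 and 3, Scid line 2, Mre11A/A line 3, the 3 lines of 53bp1-/-, H2ax-/- line 3 and Mdc1-/- line 3), with an adjusted p of up to 0.33 and a change of 0.38 to 0.77 over all 21 omissions. It was also lost with a pseudocount of 1, no filter, centring on the 75th percentile or the mean of the kept probe sets.

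Pdia3, an ER disulfide isomerase that folds glycoproteins, went from 9789 to 8630, 6768 to 5971 and 10984 to 6044 in Atm-/- and fell by 0.41 on the log2 scale (standard error 0.10, adjusted p = 0.0391), lower in 3 of 3 lines with overlapping ranges. Most of this came from line 3, and the change was -0.18 without it (0.308). The call was also lost without Mre11A/A line 1 or 2, H2ax-/- line 3 or Mdc1-/- line 2, with quantile normalization and with the mean of the kept probe sets. In the same line Sdf2l1, an ER chaperone cofactor, went from 1315 to 312 and Pdia4, another disulfide isomerase, from 1236 to 481, where Atm-/- lines 1 and 2 went from 1039 to 881 and 561 to 550 for Sdf2l1 and from 268 to 314 and 185 to 212 for Pdia4. Before radiation Atm-/- line 3 had the highest Pdia4 signal of the 21 lines. The Actb 3'/5' ratio went from 1.32 to 1.59 in this line, from 1.37 to 1.22 in line 1 and from 1.44 to 1.61 in line 2. The part of this ratio in these falls was not tested.

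Dnajb9, an ER-resident HSP40, went from 841 to 1026, 673 to 892 and 1120 to 1338 in Mdc1-/-, with overlapping ranges, a rise of 0.31 ± 0.09 (adjusted p = 0.0353). The call was lost without any 1 of the 3 Mdc1-/- lines (up to 0.274) and with centring on the 75th percentile. In Mre11A/A the member with the smallest p was Atf4, the main transcription factor of the integrated stress response, which went from 9315 to 7462, 10791 to 9880 and 7347 to 7140 (-0.16 ± 0.07, adjusted p = 1). In 53bp1-/- it was Hspa1b.

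**Figure D3:**
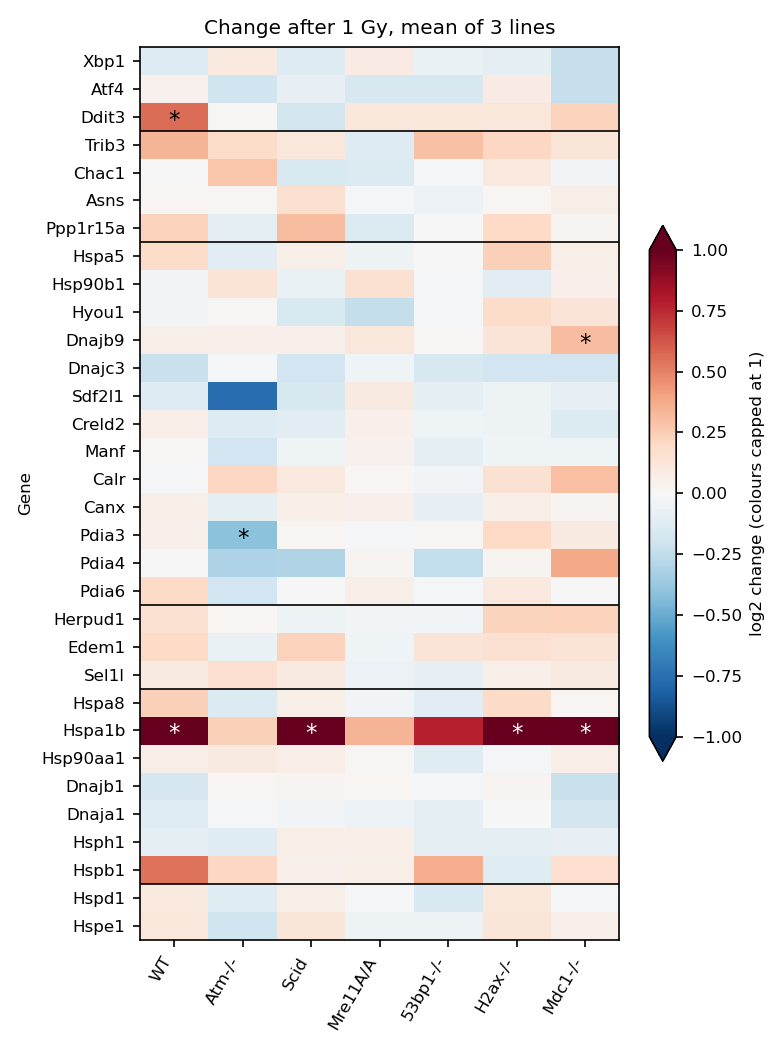
Mean change after 1 Gy of the 32 measured members (rows, grouped by role) in the 7 genotypes (columns, 3 lines each), as log2 differences with colours capped at 1; an asterisk marks a call at an adjusted p under 0.05. Hspa1b is the only row with changes above 1, Sdf2l1 in Atm-/- is the lowest cell (-0.76, not called), and most other cells lie near 0.

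Averaged over the 7 genotypes, 6 of 32 members were called, 4 higher and 2 lower, where 14.3% of all genes were called (6.4% higher and 7.87% lower). Apart from Hspa1b, these changes were small. Edem1, which hands misfolded glycoproteins to degradation, rose by 0.11 ± 0.03 (adjusted p = 0.00884); its change had a median of 0.12 and ran from -0.19 to 0.37, and 18 of 21 lines were above 0. Calr, the calcium-binding lectin chaperone, rose by 0.11 ± 0.03 (0.0418) and Dnajb9 by 0.10 ± 0.03 (0.0383), each higher in 16 of 21 lines.

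Dnajc3, an inhibitor of the eIF2 kinases, fell by 0.14 on the log2 scale (standard error 0.04, adjusted p = 0.0209); its change had a median of -0.19, ran from -0.53 to 0.33 and was above 0 in 4 of 21 lines. Atf4 fell by 0.10 on that scale (standard error 0.03, 0.0116), with a median of -0.10, a range from -0.34 to 0.20 and 5 of 21 lines above 0. A second Atf4 probe set with a mean signal of 5190 gave 0.00 (0.965), while 4 of the 5 Dnajc3 probe sets were called lower. Both other Calr probe sets were called higher, by 0.14 (adjusted p = 0.00165) and 0.15 (0.000896). The second Edem1 probe set gave 0.09 and was not called (0.121). The Calr and Dnajb9 calls were each lost in 12 of the 21 omissions of 1 line (up to 0.0924 and 0.0852), and those of Edem1, Atf4 and Dnajc3 in none (0.0497 at most). The Atf4 call was lost with the mean of the kept probe sets (-0.02), and those of Calr and Dnajb9 with no filter, with centring on the 75th percentile and with robust moderation without a trend, which also lost that of Dnajc3. Without pairing, all 5 of these calls were lost.

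The remaining ER members were called in no response. Over the 21 lines the ER chaperones Hsp90b1, Hyou1, Creld2, Manf and Canx changed by -0.27 to 0.28, -0.44 to 0.42, -0.29 to 0.18, -0.29 to 0.09 and -0.22 to 0.19. The degradation factors Herpud1 and Sel1l changed by -0.24 to 0.46 and -0.21 to 0.37. Hspa5, the ER HSP70 also called BiP and a standard readout of ER stress, changed by a median of 0.04 over the 21 lines (-0.31 to 0.44) and was called in no genotype. Xbp1 changed by a median of -0.07 (-0.37 to 0.21), and whether its probe sets tell the spliced from the unspliced transcript was not tested. Of the integrated stress response targets other than Ddit3, none of 4 was called in any response by limma, and 1 of them (Trib3) had an unadjusted p under 0.05 over the genotypes. Trib3, a pseudokinase, had a median of 0.15 (-0.41 to 0.63) and Ppp1r15a, which returns eIF2 to its unphosphorylated form, 0.01 (-0.53 to 0.76). Chac1 had a median of -0.07 (-0.31 to 0.72) and Asns of 0.02 (-0.25 to 0.46).

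The design sets each genotype's response beside that of WT. No member was called by limma in any of these 6 differences, which share the WT arrays, nor in the F test over all 7 responses. All genes were called at 2.07% in Atm-/- minus WT, at 0.00809% in Scid and in Mre11A/A, at 0% in 53bp1-/-, H2ax-/- and Mdc1-/-, and at 0.979% in the F test. With an unadjusted p under 0.05 there were 11 of 32 members in Atm-/- minus WT, 1 in Scid, 3 in Mre11A/A, 1 in 53bp1-/-, 0 in H2ax-/-, 2 in Mdc1-/- and 5 in the F test. The shares of all genes at that unadjusted threshold were 15.4%, 5.34%, 8.43%, 5.27%, 4.54%, 5.15% and 11.5% in the same order.

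In Atm-/- minus WT the smallest p belonged to Pdia6, an ER disulfide isomerase, which went from 4787 to 6076, 3329 to 4181 and 5893 to 5557 in WT and from 5570 to 4837, 3802 to 3024 and 3887 to 3786 in Atm-/- (difference -0.39 ± 0.12, adjusted p = 0.0807). The Hspa1b difference there was -1.22 ± 0.46 (0.183). It was -1.12 ± 0.46 in Mre11A/A (0.501), the smallest p of that comparison. Without Scid line 1, the Atm-/- difference of Hspa1b reached 0.0334 and its F test went from 0.208 to 0.012. In Atm-/- minus WT, 4 members were called without WT line 4, 3 without Atm-/- line 3, 1 without Atm-/- line 2 and 1 without Scid line 1.

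The smallest p in Scid minus WT belonged to Ddit3 (-0.74 ± 0.22, adjusted p = 0.785), and Ddit3 also had it in H2ax-/- (-0.45 ± 0.22, 0.995). Ddit3 had gone from 765 to 602, 1545 to 1309 and 967 to 993 in Scid and from 430 to 337, 746 to 1043 and 714 to 819 in H2ax-/-. In 53bp1-/- it was Hspa8 (-0.35 ± 0.14, 0.94), which went from 31063 to 25844, 26428 to 29769 and 26878 to 22636. In Mdc1-/- it was Atf4 (-0.27 ± 0.10, 0.93), which went from 7498 to 6183, 6422 to 5949 and 3614 to 2946 against 5642 to 6293, 5132 to 5379 and 10510 to 9766 in WT.

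Other genes of these pathways were read from lists that held no members, and their counts over the genotypes stand against the 14.3% of all genes called there. Of 10 measured UPR sensors and eIF2 kinases, 1 rose over the genotypes: Eif2ak3, which codes for PERK, by 0.19 ± 0.04 (adjusted p = 0.00238). Of 27 other ATF4 and amino acid response genes, 3 rose and 2 fell; the smallest p belonged to Sesn2 (1.46 ± 0.11, 5.26e-10), Ddit4 (1.02 ± 0.09, 5.22e-09) and Atf3 (0.45 ± 0.06, 5.37e-06). Sesn2 and Ddit4, both negative regulators of mTORC1, are also known p53 targets. In Atm-/- they changed by 0.17 and 0.28 without a call, and which factor drove their rise was not tested. Of 26 other ER folding and degradation genes 2 rose and 1 fell, and of 29 other heat shock and co-chaperone genes 1 rose (Hspa1a) and 1 fell (Dnajc2, -0.08 ± 0.02, 0.0179). The list medians were -0.05, 0.00, -0.01 and -0.02, against 0.00 for all genes.

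Before radiation, the spread over lines differed between members. The untreated signal of Trib3 ran from 54.7 in Mdc1-/- line 3 to 1419 in Scid line 2, a 26-fold range, and its standard deviation over the 21 lines on the log2 scale exceeded that of 94.6% of genes. Hspa1b ran from 117 in Mdc1-/- line 2 to 2830 in 53bp1-/- line 3, a 24.3-fold range (94.2% of genes). Hsp90aa1 ran only from 17820 to 22524, or 1.26-fold, and 0.21% of genes had a smaller standard deviation. Chac1, a glutathione-degrading enzyme, spanned 8.75-fold, Xbp1 7.68-fold and Pdia4 6.69-fold. Lower ranges were seen for Herpud1 (3.34-fold), Manf (1.99-fold), Sel1l (1.78-fold), Hspe1 (1.52-fold), Canx (1.46-fold) and Dnaja1 (1.42-fold).

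**Figure D4:**
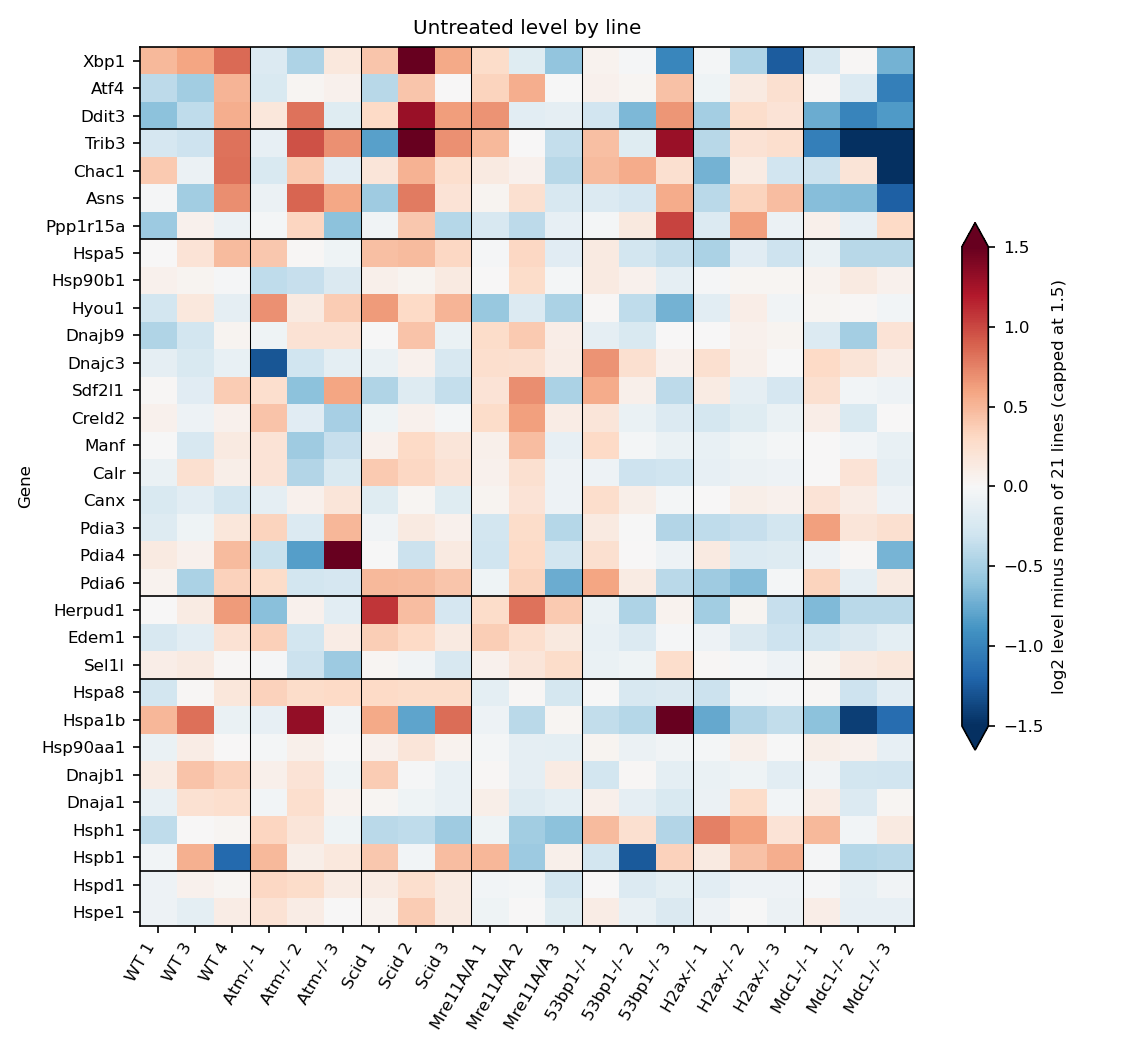
Untreated log2 level of the 32 measured members (rows, grouped by role) in the 21 lines (columns), as the difference from the mean of the lines with colours capped at 1.5. Trib3, Chac1 and Asns are lowest in Mdc1-/- line 3, Hspa1b is highest in 53bp1-/- line 3 and Pdia4 in Atm-/- line 3, and Hsp90aa1 is nearly even.

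In an F test over the 7 untreated genotypes, 7 of 32 members were called, where 12.1% of all genes were: Hyou1, Hspa8, Hspd1, Hspa5, Hsp90b1, Hsph1 and Xbp1. In the differences from WT, which share the WT arrays, 1 member was called in Mdc1-/- (4.07% of all genes) and none by limma in Atm-/- (0.0162%), Scid (0.218%), Mre11A/A (1.85%), 53bp1-/- (2.05%) or H2ax-/- (2.94%). In those 5 differences 7, 5, 5, 6 and 5 members had an unadjusted p under 0.05, where 10.4%, 11.7%, 14%, 15.5% and 16.9% of all genes did. The Gapdh 3'/5' ratio moved with the same genotypes, and its part in these differences was not tested.

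Hyou1, an ER chaperone of the HSP110 family, was highest in Scid and Atm-/-. Untreated Hyou1 signals were 1182, 1596 and 1295 in WT, 2309, 1564 and 1861 in Atm-/- and 2232, 1768 and 2043 in Scid. They were 961, 1246 and 1028 in Mre11A/A, 1451, 1095 and 865 in 53bp1-/-, 1280, 1537 and 1384 in H2ax-/- and 1459, 1454 and 1392 in Mdc1-/-. The lowest Atm-/- value overlapped with WT, while the 3 Scid values lay above those of WT, Mre11A/A, 53bp1-/-, H2ax-/- and Mdc1-/- (F test adjusted p = 0.00913). The call held without each single line (0.025 at most). A second Hyou1 probe set with a mean signal of 378 gave another order, with log2 levels of 9.05 in Atm-/-, 8.64 in Scid, 9.25 in H2ax-/- and 7.75 in WT.

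Untreated Hspa5 signals were 18184, 20737 and 25102 in WT, 24039, 18267 and 17166 in Atm-/- and 24607, 24907 and 22409 in Scid. They were 17826, 22303 and 15989 in Mre11A/A, 19874, 14850 and 14018 in 53bp1-/-, 12939, 16047 and 14578 in H2ax-/- and 16853, 13484 and 13434 in Mdc1-/-. The 3 Scid lines, WT line 4 and Atm-/- line 1 were high and H2ax-/- and Mdc1-/- lines low, where the highest values of H2ax-/- (16047) and Mdc1-/- (16853) lay below the lowest of WT (18184) (F test adjusted p = 0.0234). The differences from WT were -0.55 ± 0.16 in H2ax-/- (0.0788) and -0.54 ± 0.16 in Mdc1-/- (0.0701), neither called. The F call was lost without Scid line 1 or 2 (0.0562 at most). Of the other Hspa5 probe sets, that with a mean signal of 9880 was not called among genotypes (0.278), with log2 levels of 12.95 in Atm-/-, its lowest, 13.12 in H2ax-/- and in Mdc1-/- and 13.25 in WT. That with a mean signal of 1600 was called (0.000469) and was lowest in 53bp1-/- (10.18) and Mdc1-/- (10.22), against 10.94 in WT.

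Untreated Hsp90b1 signals were 13941, 13680 and 13118 in WT, 10225, 10543 and 11452 in Atm-/- and 14147, 13717 and 14599 in Scid. They were 13414, 16234 and 13056 in Mre11A/A, 14662, 13967 and 12096 in 53bp1-/-, 13177, 13598 and 13586 in H2ax-/- and 13832, 14699 and 13871 in Mdc1-/-. Hsp90b1, the ER HSP90, was lower in all 3 Atm-/- lines than in any other line (F test adjusted p = 0.0275), at a mean of 13.39 on the log2 scale against 13.72 to 13.79 in the other genotypes. The call was lost without Atm-/- line 1 or 2 (0.0976 at most), with centring on the 75th percentile, with the mean of the probe sets and with all 42 arrays. A second probe set also differed among genotypes (0.00733) but was lowest in H2ax-/-.

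Untreated Xbp1 signals were 12043, 12902 and 15499 in WT, 7468, 6217 and 9606 in Atm-/- and 11440, 27522 and 12748 in Scid. They were 10418, 7569 and 5683 in Mre11A/A, 8880, 8457 and 4323 in 53bp1-/-, 8369, 6243 and 3583 in H2ax-/- and 7276, 8715 and 5224 in Mdc1-/-. WT and Scid lines had the 6 highest Xbp1 values, and Scid line 2 stood far above the rest (F test adjusted p = 0.0454). Of the differences from WT, -1.23 ± 0.36 in H2ax-/- (0.0721) and -0.96 ± 0.36 in 53bp1-/- (0.181) were not called. The F call was lost in 15 of 21 omissions of 1 line (0.0909 at most), and held without Atm-/- line 3, Scid line 1, Mre11A/A line 1, 53bp1-/- line 1 or 3 or H2ax-/- line 1. The call was also lost with no filter, quantile normalization, centring on the 75th percentile or the mean of the probe sets. The other 3 Xbp1 probe sets were likewise highest in Scid, and none of them was called by limma among genotypes (0.0511, 0.0668 and 0.301). Jchain, a plasma cell marker, had its highest untreated signal (3538) in Scid line 2 too, against 56.9 to 1359 in the other lines. The other plasma cell markers on the platform peaked in other lines. Over all 42 arrays, Prdm1 (204) and Derl3 (185) were highest in Scid line 1, Sdc1 (943) in Atm-/- line 1 and Tnfrsf17 (53.8) in WT line 3. The part of these markers was not tested.

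Among cytosolic members, the constitutive HSP70 gene Hspa8 was highest in Atm-/- and Scid. Untreated Hspa8 signals were 25738, 31716 and 35240 in WT, 39983, 37600 and 38636 in Atm-/- and 38406, 37846 and 37877 in Scid. They were 28100, 31676 and 26187 in Mre11A/A, 31063, 26428 and 26878 in 53bp1-/-, 25126, 30418 and 30781 in H2ax-/- and 31701, 25233 and 28076 in Mdc1-/-. The Atm-/- and Scid lines lay above every line of the other 5 genotypes (F test adjusted p = 0.0167). Another Hspa8 probe set with a mean signal of 14500 ran the other way, with log2 levels of 13.13 in Atm-/- and 13.45 in Scid against 14.09 in H2ax-/- and 13.97 in 53bp1-/-. It was also called among genotypes (F test adjusted p = 0.000657 among probe sets tested on their own). With the mean of the probe sets or with quantile normalization the Hspa8 call was lost (0.711 at most over the alternatives).

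Untreated Hspd1 signals were 16630, 18342 and 18054 in WT, 21831, 21302 and 19191 in Atm-/- and 19171, 20994 and 19355 in Scid. They were 17137, 17245 and 14517 in Mre11A/A, 17678, 15198 and 15846 in 53bp1-/-, 15728, 16657 and 16622 in H2ax-/- and 17407, 16368 and 17082 in Mdc1-/-. Hspd1, the mitochondrial HSP60, was likewise highest in Atm-/- and Scid, each line above all lines of the other genotypes (F test adjusted p = 0.0176), and the call was lost with quantile normalization and with all 42 arrays (0.237 at most over the alternatives).

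Untreated Hsph1 signals were 1954, 2546 and 2609 in WT, 3176, 2888 and 2441 in Atm-/- and 1920, 1956 and 1760 in Scid. They were 2452, 1770 and 1660 in Mre11A/A, 3532, 3010 and 1874 in 53bp1-/-, 4334, 3873 and 2929 in H2ax-/- and 3587, 2481 and 2813 in Mdc1-/-. Hsph1 ran otherwise, with its highest values in H2ax-/- and its lowest in Scid and Mre11A/A, among overlapping genotypes (F test adjusted p = 0.0361). The call was lost in 9 of 21 omissions of 1 line (0.0909 at most): each Scid line, Mre11A/A lines 2 and 3, 53bp1-/- line 2, H2ax-/- lines 1 and 2 and Mdc1-/- line 3. It was also lost with centring on the 75th percentile. A second probe set was also highest in H2ax-/- and lowest in Scid.

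Dnajb1 was the member called between an untreated mutant and WT: its signals were 2826, 3512 and 3294 in WT and 2523, 2151 and 2136 in Mdc1-/-, with no overlap, a difference of -0.50 ± 0.13 (adjusted p = 0.0364). It was not called without WT line 3 or 4 or Mdc1-/- line 2 or 3 (0.146 at most), nor with no filter or the mean of the probe sets, and a second probe set gave -0.25 (0.179).

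**Figure D5:**
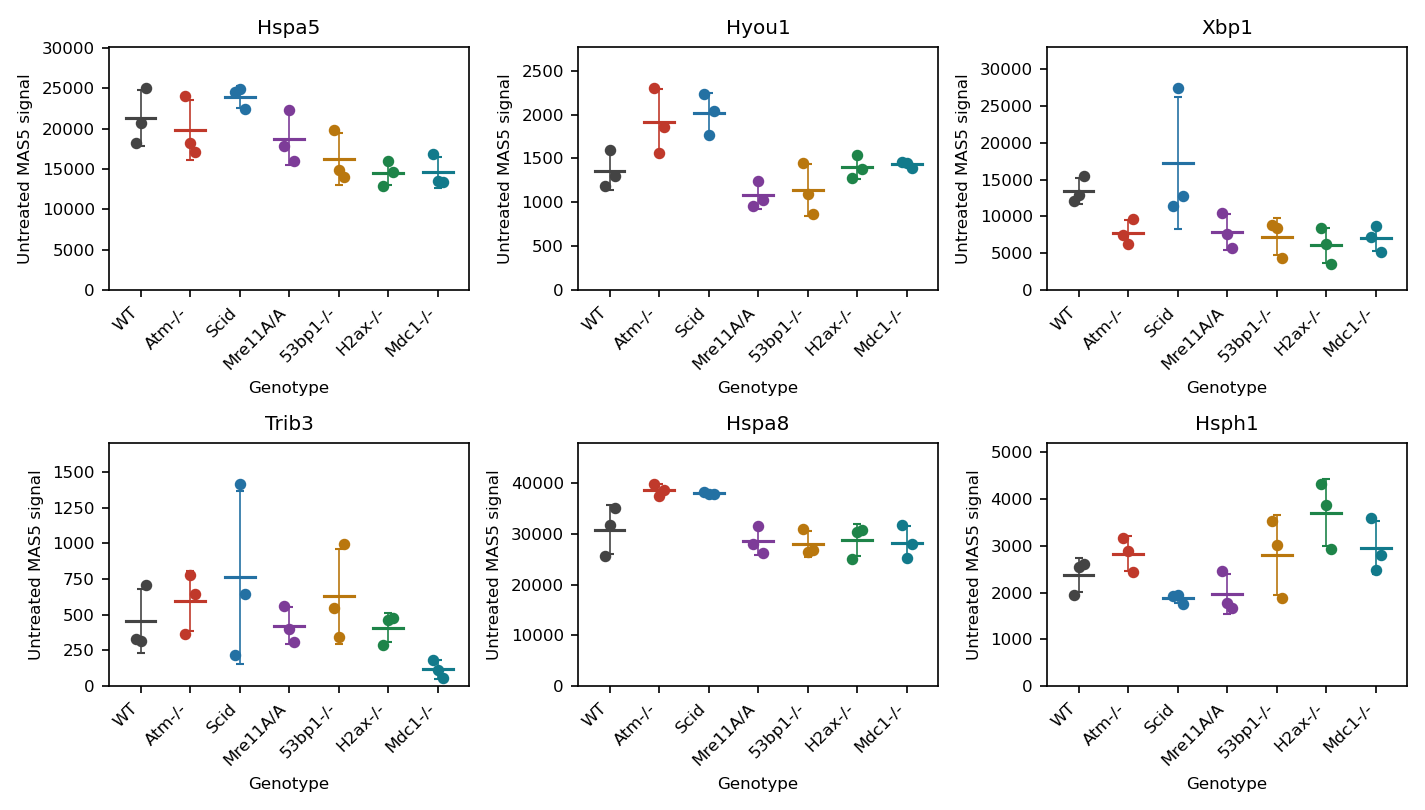
Untreated MAS5 signal (linear axis from 0) of 6 members by genotype; each point is 1 line, the horizontal bar is the mean and the whisker 1 SD (n = 3). On the probe sets used, Hspa8 and Hyou1 are highest in Atm-/- and Scid, and Hspa5 is lowest in H2ax-/- and Mdc1-/-. Another probe set of Hspa8 and of Hyou1 gave another order, and the second Hspa5 probe set was lowest in Atm-/-. All 3 Mdc1-/- lines have the lowest Trib3 signals.

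Of the 4 integrated stress response targets other than Ddit3, Trib3, Chac1 and Asns had their lowest genotype mean in Mdc1-/-, none of them called. Untreated Trib3 signals were 331, 317 and 711 in WT, 362, 778 and 646 in Atm-/- and 219, 1419 and 645 in Scid. They were 564, 397 and 306 in Mre11A/A, 547, 347 and 994 in 53bp1-/-, 291, 464 and 474 in H2ax-/- and 186, 115 and 54.7 in Mdc1-/-. The 3 Mdc1-/- values lay below those of all 18 other lines, yet the F test gave an adjusted p of 0.0589 and the difference from WT, -1.83 ± 0.55, one of 0.0711. A second Trib3 probe set was also lowest in Mdc1-/-, at 7.02 on the log2 scale against 8.21 in WT. Untreated Chac1 signals were 778, 554 and 1064 in WT and 469, 678 and 122 in Mdc1-/-, which overlap, with line 3 far below the others. Chac1 and Asns, the asparagine synthetase gene, differed from WT by -1.13 ± 0.41 (0.139) and -0.89 ± 0.36 (0.187), and Ppp1r15a by 0.28 ± 0.30 (0.697). Mdc1-/- line 3 had the lowest signal of all 21 lines for Trib3, Chac1, Asns (2515) and Atf4 (3614), and Mdc1-/- line 2 that for Ddit3 (304).

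The transcription factors upstream of them varied within genotypes. Untreated Atf4 signals were 5642, 5132 and 10510 in WT, 6287, 7563 and 7764 in Atm-/- and 5511, 9910 and 7372 in Scid. They were 9315, 10791 and 7347 in Mre11A/A, 7720, 7535 and 10025 in 53bp1-/-, 7068, 8148 and 8740 in H2ax-/- and 7498, 6422 and 3614 in Mdc1-/-. Untreated Ddit3 signals were 399, 473 and 917 in WT, 699, 1102 and 545 in Atm-/- and 765, 1545 and 967 in Scid. They were 993, 553 and 562 in Mre11A/A, 504, 384 and 988 in 53bp1-/-, 430, 746 and 714 in H2ax-/- and 364, 304 and 336 in Mdc1-/-. For both genes WT line 4 was above the other WT lines, and Scid line 2 had the highest Ddit3 signal of all. Neither was called among genotypes.

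Across the 21 untreated lines, the genes whose log2 levels were most like Hspa5 (Pearson r, a description over lines that share arrays and scaling) were Dnaja2, a co-chaperone (0.95), Ppib, an ER prolyl isomerase (0.92), and Cox5b (0.90). The next 7 were Polr1c, Clns1a, Sdf2, Mdh2, Cox6b1, Cs and Ints5, from 0.88 to 0.86. After genotype means were taken out, Dnaja2 (0.94), C1qbp (0.93) and Ppib (0.92) led, followed by Slc35b1, Akr1a1, Nop56, Eif3k, Nme2, Cox5b and Cox4i1, and the members Hspa8 (0.83), Hspe1 (0.79), Manf (0.78), Creld2 (0.78) and Hspd1 (0.75) stood among the first 100 genes. The 10 genes most like Hspa8 were Rpl4, Rps2, Rps14, Rplp2, Rps3a1, Tpt1, Rps29, Eef1a1, Rpl19 and Rpl41, each at 0.96, most of them ribosomal protein genes, and after genotype means were taken out Rpl6 (0.95), Rpl4 (0.92) and Strn4 (0.91) led. Before genotype means were taken out, 25 of the 31 other members correlated above 0 with Hspa5 and 25 with Hspa8, with medians of 0.34 and 0.35. With 12363 genes tested, an r of 0.00 with Hspa5 stood at rank 6157 and one of 0.02 with Hspa8 at rank 6019. On that scale 1 other member stood among the first 100 genes for Hspa5 and 1 for Hspa8. These likenesses rest on the probe set used for each gene. The Hspa8 probe set that ran the other way over genotypes was not compared.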

How the data were processed

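RNA from 21 mouse v-abl pre-B lines was measured untreated and 2 h after 1 Gy. The deposited table holds a linear intensity per probe set and array, for which the submitters' processing notes name MAS5. Labelling followed the one-cycle protocol per the labels' protocols, and every array had a 2% trimmed mean of 500. Precision is limited by having 3 arrays a group.

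Of 45101 probe sets, 64 were controls, 34945 had 1 symbol, 932 several and 9160 none in GEO's platform annotation. A probe set was kept if above its array's median on at least 3 arrays (28260 probe sets). The one with the highest mean of log2(signal + 16) per gene was used (12363 genes). Tests used limma 3.58.1 in R 4.3.3 (trend moderation) on log2(signal + 16), with Benjamini-Hochberg adjustment over all genes in each of 22 comparisons. Folds on this scale understate changes of low signals. The response fit paired both arrays of a line by its number (14 residual degrees of freedom), since the series' design text describes untreated and irradiated samples of each line. Deviations from group means correlated at 0.354 to 0.643 within the 21 same-number pairs and at -0.442 to -0.0526 otherwise. Untreated levels were fitted on 21 arrays. No pair of arrays held identical values.

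Members described line by line, or by lowest, median and highest over 21 lines, are those called in a response (at most 4 per comparison, or the smallest p), the 8 with the smallest untreated F p, and Hspa5, Xbp1, Atf4, Ddit3, Hspa8 and Hspa1b. The members and lists were chosen with earlier results of these data known. The fits were first tested on simulated data in which 200 genes were changed. In the WT response, 46% of changes of 0.5 and 62% of changes of 1 on the log2 scale were recovered. In untreated Mdc1-/- minus WT, 7% and 33% were, so a gene that was not called may still differ. Figures used matplotlib 3.10.9. Promoters are RefSeq GRCm38.p6.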

Additional observations from a re-analysis of the deposited data

How the results depend on the processing

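The calls are sensitive to the model. With no replicate block, 0 members were called in WT, Atm-/-, Scid, H2ax-/- and Mdc1-/- and 1 over the genotypes. Without trend and with robust moderation, 0 were called in WT, Atm-/-, Scid and H2ax-/-, 1 in Mdc1-/-, 3 over the genotypes, 0 in untreated Mdc1-/- minus WT and 1 in the untreated F test. With quantile normalization there were 4 in Mdc1-/-, 1 in the Atm-/- minus WT response, and 1, 2 and 3 in untreated 53bp1-/-, H2ax-/- and Mdc1-/- minus WT. Centring on the 75th percentile gave 1 in WT, 2 in Atm-/-, 1 in Mdc1-/- and 4 in the untreated F test. The mean of the kept probe sets gave 1 in WT, 0 in Atm-/- and 1 in Atm-/- minus WT. A pseudocount of 1 gave 1 in WT, and no filter gave 1 in WT and 0 in untreated Mdc1-/- minus WT. Without both lines whose irradiated array had a high median there were 2 in Atm-/-, 4 in Mdc1-/- and 3 in Atm-/- minus WT. With all 42 arrays and the line as a random block (consensus correlation 0.53), untreated H2ax-/- minus WT gave 2, Mdc1-/- 3 and the F test 13. Leaving out 1 line at a time gave 0 to 3 in WT, 0 to 2 in Atm-/-, 0 to 1 in Scid and H2ax-/-, 1 to 5 in Mdc1-/-, 4 to 7 over the genotypes, 0 to 4 in Atm-/- minus WT, 0 to 1 in the response F test, 0 to 1 and 0 to 2 in untreated H2ax-/- and Mdc1-/- minus WT and 5 to 10 in the untreated F test. The Hspa1b response differences near 0 changed sign: Scid minus WT, 0.04, was -0.23 with the mean of probe sets, -0.40 and -0.33 with its other probe sets (an alternative chosen after seeing the data), -0.11 without both lines, and -0.81 to 0.53 without single lines (-0.08 without WT line 1, -0.11 without WT line 4, -0.81 without Scid line 1). H2ax-/- minus WT, 0.20, was -0.02 with the mean of probe sets, -0.15 and -0.09 with the others, and -0.01 (without H2ax-/- line 3) to 0.47 without single lines, and the Atm-/- response, 0.24, was -0.10 with the second probe set. The cause was not tested. The Hspa1b rise over the genotypes was called under all alternatives. Signals near or below the array median, as for Hspb1 and in many lines for Hspa1a, limit what their changes can show. Hspa1a went from 7.47 to 5.78 in Atm-/- line 1 and from 15.2 to 11.2 in Scid line 2, below the 16 added to each signal.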

Other observations

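Over the 21 lines, the genes whose change after radiation was most like that of Hspa1b, a gene chosen for this after its values were seen, were Prkcd (Pearson r 0.90), Swap70 (0.88), H2-K1 (0.88) and Icam1 (0.86). No member stood among the first 100 such genes and 3 (Edem1, Hspe1 and Hspa8) among the first 500, and the points share arrays and scaling.

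In 53bp1-/- line 3, where untreated Hspa1b was highest (2830), untreated Hspa1a (740) and Ppp1r15a (608) were also highest of the 21 lines. Hyou1 (865), Pdia3 (5709), Dnaja1 (7680) and Hspe1 (9744) were lowest of the 21 lines there. Among the 53bp1-/- lines, Trib3 (994), Ddit3 (988), Asns (8689) and Atf4 (10025) were highest in line 3. Hsph1 was 1874 there against 3532 and 3010 in the other 53bp1-/- lines.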
